A study of Rattus norvegicus with 44 samples.

Results

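Prolyl hydroxylases, lysyl hydroxylases and JmjC proteins were followed as 8 genes, Egln1, Egln3, P4ha1, P4ha2, Plod1, Plod2, Kdm3a and Jmjd6, out of the 14218 genes named by single-gene probe sets of the array. The genes were chosen by name, with earlier results of these data known. Every probe set whose array annotation names exactly 1 of them was taken, which gave 10 probe sets. H4-II-E-C3, a cell line derived from a rat hepatoma, was exposed for 24 h in serum-free medium to NiCl2 at 40, 140 or 400 µM, to Na2Cr2O7 at 0.275, 1 or 10 µM, or to CdCl2 at 0.2, 0.55 or 1.2 µM, and unexposed flasks of the same line served as controls. Within each metal the concentrations were set on cell viability, at no observed, moderate and heavy cell death. Total RNA was hybridized to 44 Affymetrix rat genome expression arrays, as 4 biological replicates of the 9 exposures, each replicate with 2 control arrays, and whether these 2 came from separate flasks is not given in the sources used here. Values are the deposited log2 values after RMA (robust multi-array averaging), so that a difference of 1 is a 2-fold difference. The line is a tumor clone in culture, and all 9 exposures share the 8 control arrays.

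Conditions were given to the arrays by an order of the sample titles and not by the title of each array. The titles were listed in series order, the 4 titles that mark a repeated microarray were moved to the end, and the titles were then given to the columns of values in turn. Over 992 probe sets, mean log2 changes from controls in this order were set beside those that the authors had computed from these arrays. The 2 sets differed by a median of 2.95e-06 and by at most 7.5e-06. With each title on its own column the median difference was 0.164 and the largest 4.32. The order changed the condition of 22 arrays, 0 in replicate 1, 2 in replicate 2, 10 in replicate 3 and 10 in replicate 4 as labelled, and the nickel, chromium and control arrays of replicates 1 and 2 have the same condition under both. All values below follow the moved titles. With the titles as deposited, 0 of the 7 tested genes passed in any comparison with controls (limma). Of all probe sets tested, at most 0.00624% did so in either direction. With replicates 1 and 2 alone, where no nickel or control array is in question, 7 of 7 passed at nickel 400 µM and 6 of 7 at nickel 140 µM. In that setting 26.0% of all probe sets were called higher at nickel 400 µM and 1.09% at nickel 140 µM.

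Dioxygenases of this family use oxygen, 2-oxoglutarate and ferrous iron to hydroxylate prolines, lysines or methyl groups. Egln1 and Egln3 encode prolyl hydroxylases (PHD2 and PHD3 in human) that mark the alpha subunits of the hypoxia-inducible factors (HIF) for degradation when oxygen is present. P4ha1 and P4ha2 encode catalytic subunits of collagen prolyl 4-hydroxylase, and Plod1 and Plod2 encode lysyl hydroxylases that prepare collagen for cross-linking. Kdm3a encodes a JmjC demethylase that removes a repressive methyl mark from histone H3, and Jmjd6 encodes a JmjC lysyl hydroxylase that acts on splicing factors. Several of these genes are themselves induced through HIF in low oxygen, in human and rodent cells.

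At nickel 400 µM all 7 tested genes rose, and none of them rose at nickel 40 µM. The log2 changes from controls at 400 µM lay between 0.78 for Plod1 and 1.87 for P4ha1, with a median of 1.23, beside a median of 0.02 over all probe sets tested. At nickel 140 µM 5 of the 7 rose, with a median of 0.73. A gene was called at an adjusted p of at most 0.05 in limma. Of all probe sets tested, 23.5% were called higher and 16.5% lower at nickel 400 µM, and 2.57% were called higher and 0.780% lower at nickel 140 µM. Because the genes were chosen with earlier results known, their counts beside such shares are a description here and below. At nickel 40 µM 0 of the 7 and 0% of all probe sets were called in either direction, and 0 of the 7 had an unadjusted p under 0.05 in limma. The plot of values by condition gives every array of the 8 genes.

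**Figure D1:**
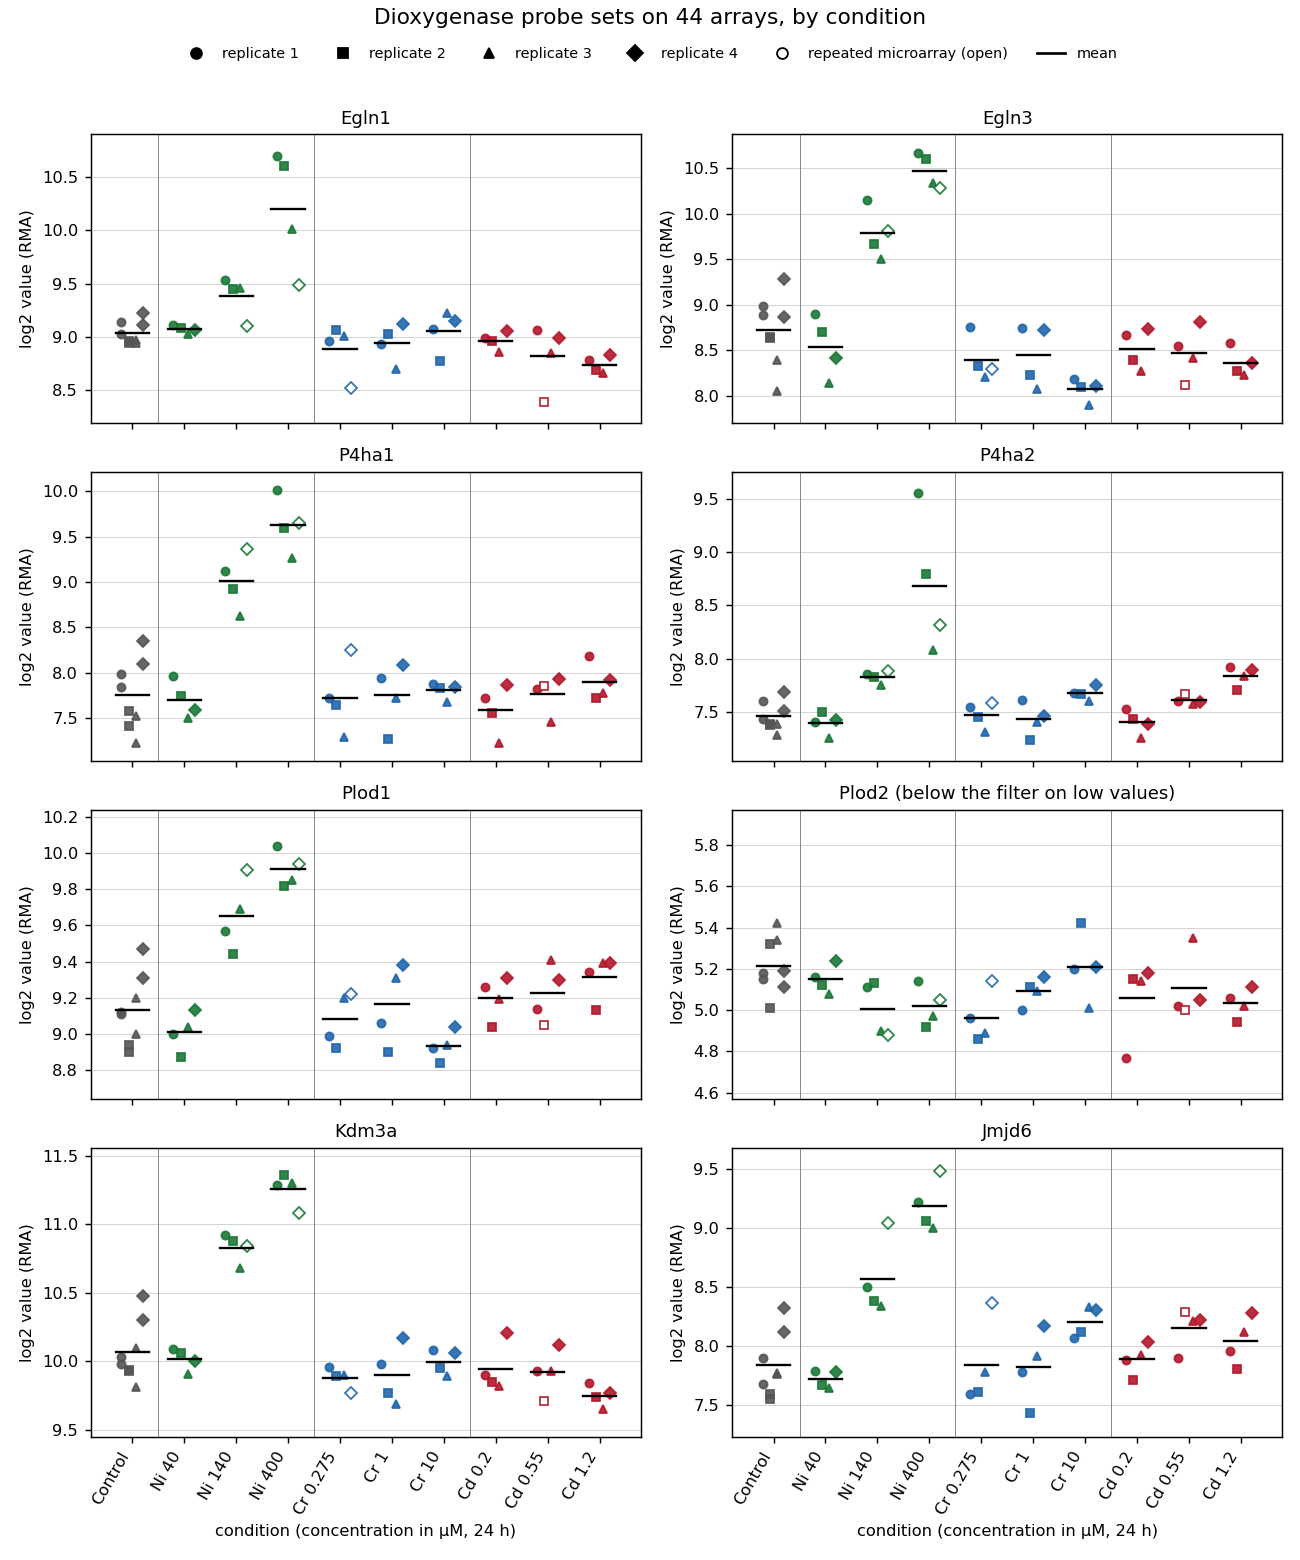
The log2 RMA value of 1 probe set of each gene (y axis) is plotted for every array by condition (x axis, µM), with markers for the 4 replicates, open markers for the repeated microarrays and a line at the mean of each condition. The nickel 400 µM arrays lie above all 8 control arrays for the 7 tested genes, while Plod2 stays between 4.77 and 5.42 in all conditions.

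Egln3, a HIF prolyl hydroxylase whose gene is itself a HIF target in mammals, had 10.67, 10.60, 10.34 and 10.28 in replicates 1 to 4 at nickel 400 µM (probe set 1368174_at, log2 values as in all that follows). At nickel 140 µM it had 10.15, 9.67, 9.50 and 9.81. Control arrays ran from 8.05 to 9.28 with a median of 8.75. All 8 of these nickel arrays lay above all controls, and the 400 µM and 140 µM ranges did not overlap. The log2 change was 1.75 ± 0.12 (SE) at 400 µM (3.37-fold, adjusted p = 5.6e-07, limma) and 1.07 ± 0.12 at 140 µM (adjusted p = 0.00059, limma).

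Egln1, the main HIF prolyl hydroxylase in most mammalian cells, rose at nickel 400 µM with a wide spread between replicates. Its values were 10.70, 10.60, 10.01 and 9.49 at nickel 400 µM (1389207_at), against 8.94 to 9.22 in controls, with a control median of 9.0. All 4 arrays lay above the controls, and replicate 4 rose least. At nickel 140 µM the values were 9.53, 9.45, 9.46 and 9.10, of which replicate 4 fell within the control range. The log2 change was 1.16 ± 0.17 at 400 µM (2.23-fold, adjusted p = 0.00021, limma) and 0.34 ± 0.17 at 140 µM (95% interval from -0.02 to 0.71, adjusted p = 0.3, limma). The array of replicate 4 is a repeated microarray at both concentrations, and without the 4 repeated arrays the change was 1.42 ± 0.11 at 400 µM and 0.46 ± 0.11 at 140 µM (adjusted p = 0.07, limma). Egln1 was the lowest of its condition on all 4 repeated arrays, also at chromium 0.275 µM (8.52) and cadmium 0.55 µM (8.39). A second probe set of Egln1 (1375262_at) was below the filter on low values, at 5.38 to 6.05 on all arrays, and was not tested.

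P4ha1 and P4ha2, catalytic subunits of collagen prolyl 4-hydroxylase, rose at nickel 400 µM, and P4ha1 also at 140 µM. P4ha1 had 10.01, 9.59, 9.27 and 9.65 at nickel 400 µM and 9.12, 8.92, 8.63 and 9.36 at nickel 140 µM (1370954_at), against 7.23 to 8.35 in controls with a median of 7.71. Every array of both concentrations lay above the controls, and the 2 nickel ranges overlapped. Its change was the largest of the 7 genes, 1.87 ± 0.12 at 400 µM (3.67-fold, adjusted p = 3.3e-07, limma) and 1.25 ± 0.12 at 140 µM (2.38-fold, adjusted p = 0.00015, limma).

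P4ha2 had 9.55, 8.79, 8.08 and 8.32 at nickel 400 µM (1372610_at), against 7.28 to 7.69 in controls with a median of 7.41. Its 4 values at nickel 140 µM, 7.86, 7.83, 7.75 and 7.88, lay close together and above all controls. The change at 400 µM was 1.23 ± 0.19 (2.34-fold, adjusted p = 0.00026, limma), and replicates 1 and 2 were higher than replicates 3 and 4. At 140 µM the change was 0.37 ± 0.19 (adjusted p = 0.31, limma), with an error that all nickel exposures share in the fit. A second P4ha2 probe set (1375332_at) had 6.59, 6.44, 6.16 and 6.15 at nickel 400 µM, against 5.82 to 6.10 in controls. It passed the filter on low values only through nickel 140 and 400 µM, where it was highest, so that its difference at nickel 400 µM is a description, and the gene is counted by the first probe set.

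Plod1, which hydroxylates lysines of the collagen helix, had the smallest rise of the 7 genes. Its values were 10.04, 9.82, 9.85 and 9.94 at nickel 400 µM and 9.57, 9.44, 9.69 and 9.91 at nickel 140 µM (1367807_at), against 8.90 to 9.47 in controls with a median of 9.12. All arrays at 400 µM and 3 of 4 at 140 µM lay above the controls. The change was 0.78 ± 0.07 at 400 µM (1.72-fold, adjusted p = 6.6e-06, limma) and 0.52 ± 0.07 at 140 µM (adjusted p = 0.0018, limma).

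Plod2, the lysyl hydroxylase of the collagen ends, was the member without a test. Its only probe set (1372897_at) averaged 5.10 over the 44 arrays, below the filter floor of 5.91, and 30.7% of all probe sets that are not array controls had a lower mean. It had 5.14, 4.92, 4.97 and 5.05 at nickel 400 µM, against 5.01 to 5.42 in controls with a median of 5.18. The nickel values lay within or below the control range. Values this low do not show whether the gene was expressed, so its response was not measurable here.

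Kdm3a rose at both higher nickel concentrations. It had 11.29, 11.36, 11.30 and 11.08 at nickel 400 µM and 10.92, 10.88, 10.68 and 10.84 at nickel 140 µM (1370975_at), against 9.81 to 10.48 in controls with a median of 10.00. The 3 ranges did not overlap. Measured within each replicate, the rise at 400 µM was 1.29, 1.43, 1.34 and 0.69, the last in replicate 4, whose 2 control arrays were the highest of the 8. The change was 1.19 ± 0.10 at 400 µM (2.28-fold, adjusted p = 2.8e-06, limma) and 0.76 ± 0.10 at 140 µM (adjusted p = 0.0011, limma).

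Jmjd6 had 9.22, 9.06, 9.0 and 9.48 at nickel 400 µM and 8.50, 8.38, 8.34 and 9.04 at nickel 140 µM (1374632_at), against 7.55 to 8.32 in controls with a median of 7.76. All 8 nickel arrays lay above the controls, and the 2 nickel ranges overlapped by the repeated array at 140 µM. Jmjd6 was the highest of its condition on all 4 repeated arrays, where Egln1 was the lowest. The change was 1.35 ± 0.09 at 400 µM (2.56-fold, adjusted p = 3.5e-07, limma) and 0.73 ± 0.09 at 140 µM (adjusted p = 0.00078, limma), and without the 4 repeated arrays it was 1.33 and 0.64.

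Reference promoters are shown for 5 of the genes, because those that rose together in nickel differ in the letters before their start. The windows come from RefSeq on build GRCr8 and hold the 250 bases before the annotated start, 5′ to 3′ on the strand of the gene. The positions are chr19:69804682-69804931 (minus strand) for Egln1, chr6:77411016-77411265 (minus strand) for Egln3, chr20:27844796-27845045 (plus strand) for P4ha1, chr10:38743644-38743893 (plus strand) for P4ha2 and chr8:101964068-101964317 (plus strand) for Plod2. Capitals mark ACGTG or GCGTG, both forms of the core of the hypoxia response element, searched on both strands, so that CACGT and CACGC are the same letters read on the other strand, and an ACGTG inside CACGTG shares its letters with one on the other strand.
Egln1: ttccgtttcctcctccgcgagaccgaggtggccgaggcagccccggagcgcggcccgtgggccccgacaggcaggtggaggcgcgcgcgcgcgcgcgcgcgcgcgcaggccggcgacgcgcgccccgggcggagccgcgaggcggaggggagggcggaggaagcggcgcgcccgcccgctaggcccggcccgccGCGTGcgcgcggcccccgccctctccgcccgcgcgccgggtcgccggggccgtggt
Egln3: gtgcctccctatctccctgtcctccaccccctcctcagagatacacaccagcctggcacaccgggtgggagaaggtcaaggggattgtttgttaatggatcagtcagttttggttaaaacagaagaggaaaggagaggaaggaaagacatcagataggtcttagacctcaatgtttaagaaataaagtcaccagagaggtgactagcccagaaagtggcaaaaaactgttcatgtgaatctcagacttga
P4ha1: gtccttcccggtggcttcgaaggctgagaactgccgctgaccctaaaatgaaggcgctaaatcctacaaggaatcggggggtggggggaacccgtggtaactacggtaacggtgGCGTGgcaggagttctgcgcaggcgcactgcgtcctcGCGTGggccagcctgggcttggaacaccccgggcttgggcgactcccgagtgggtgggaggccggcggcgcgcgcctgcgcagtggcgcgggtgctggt
P4ha2: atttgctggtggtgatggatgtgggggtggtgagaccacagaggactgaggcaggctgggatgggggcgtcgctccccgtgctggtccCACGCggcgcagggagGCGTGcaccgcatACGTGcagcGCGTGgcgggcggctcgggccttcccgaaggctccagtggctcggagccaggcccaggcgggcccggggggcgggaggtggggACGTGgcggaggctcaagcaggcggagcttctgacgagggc
Plod2: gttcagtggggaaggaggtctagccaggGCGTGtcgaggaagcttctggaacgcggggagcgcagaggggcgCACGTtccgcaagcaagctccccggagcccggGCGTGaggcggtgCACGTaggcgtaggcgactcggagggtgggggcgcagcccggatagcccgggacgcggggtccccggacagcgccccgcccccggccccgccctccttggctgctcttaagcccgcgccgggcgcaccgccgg
All 8 genes matched a window, and Kdm3a had 2. P4ha2 held 2 ACGTG and 3 GCGTG, and Plod2, the gene without a measurable response, held 2 of each. P4ha1 held 2 GCGTG, and Egln1 and Plod1 held 1 GCGTG each, as did 1 of the 2 Kdm3a windows. Egln3, with the second largest rise, and Jmjd6 held neither before the start. Of all 33469 windows of this length, 16.6% held ACGTG, 25.9% held GCGTG and 36.7% held either. After the start, in bases not shown, ACGTG lay 2 bases on in Egln1 and 11 in P4ha1, and GCGTG 30 bases on in Jmjd6. With the 50 bases after the start included, 41.6% of all windows held either. The letters are a description of the reference and not a binding site.

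Between 140 and 400 µM all 7 genes rose further, by 0.26 to 0.85 on the log2 scale (limma, adjusted p between 0.001 and 0.023), beside 12.4% of all probe sets tested. This comparison was added after values were seen. In each of the 7 genes the 400 µM array was above the 140 µM array of its replicate in 4 of 4 replicates. Across arrays the 2 ranges were separate for Egln3, P4ha2 and Kdm3a and overlapped for Egln1, P4ha1, Plod1 and Jmjd6. The share of all probe sets with separate ranges, or with this order in every replicate, was not computed, so both are a description. Without replicate 1 the count of genes called for the step was 3 and without replicate 2 it was 1. In the second case Jmjd6 was the gene still called. Of all probe sets tested, 3.30% were called higher without replicate 1 and 2.22% without replicate 2. The steps themselves then lay between 0.19 and 0.82, with Plod1 the smallest in both.

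Measured as the share of the 400 µM change that was reached at 140 µM on the log2 scale, the genes differed, with no test of the difference. Egln1 reached 29.7% and P4ha2 30.4%, while Jmjd6 reached 53.7%, Egln3 60.7%, Kdm3a 64.0%, Plod1 66.6% and P4ha1 66.9%. By replicate, Egln1 ran from -20.8% in replicate 4 to 47.4%, and P4ha2 from 17.0% to 55.7%, while Jmjd6 ran from 46.2% to 64.6%, Plod1 from 49.3% to 94.3%, Egln3 from 52.5% to 70.0%, Kdm3a from 54.1% to 71.7% and P4ha1 from 57.7% to 79.7%. These ranges overlap, and in replicate 3 the shares of Egln1 (47.4%) and P4ha2 (55.7%) lay above that of Jmjd6 (46.2%). The plot of nickel differences by replicate shows the steps of each gene.

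**Figure D2:**
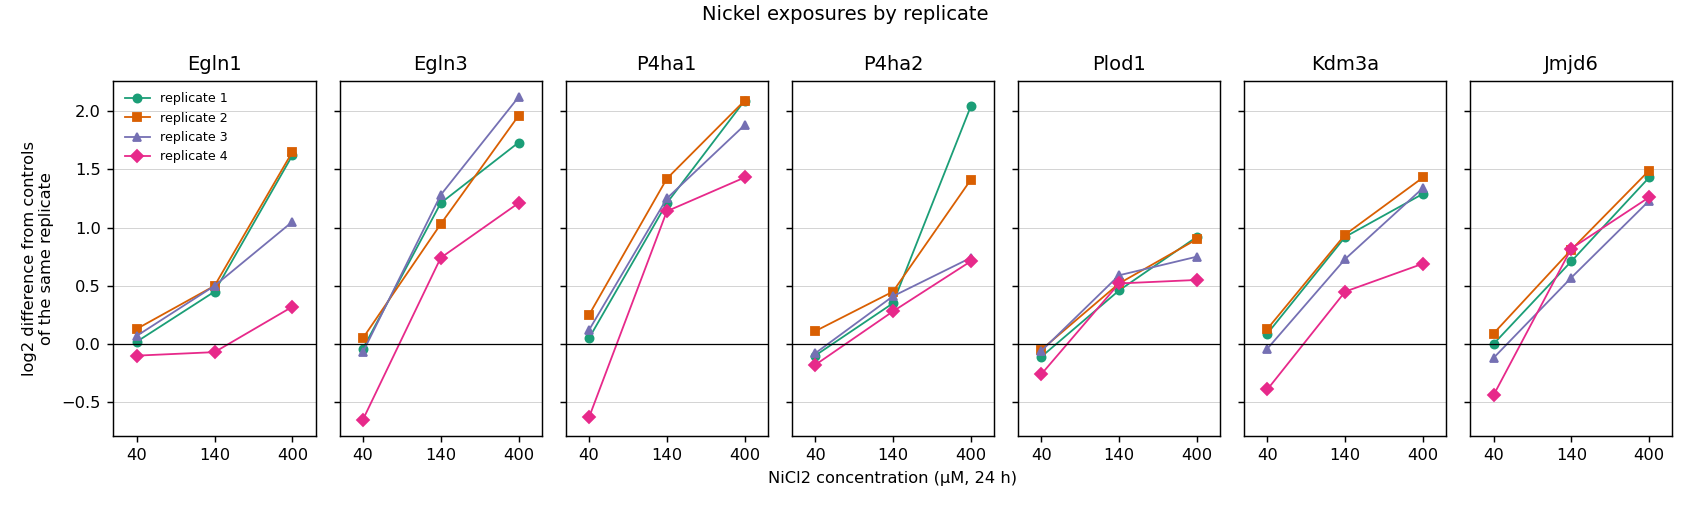
The log2 difference between each nickel array and the mean of the 2 control arrays of its replicate (y axis) is plotted against the NiCl2 concentration (x axis, µM, spaced evenly) for the 7 tested genes, with 1 line per replicate. Egln1 and P4ha2 spread most at 400 µM, where Egln1 runs from 0.32 to 1.65 and P4ha2 from 0.71 to 2.04, and their steepest second steps are those of replicates 1 and 2.

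In replicate 4 the nickel 40 µM array lay below its controls for Egln3 (-0.65), P4ha1 (-0.63), Jmjd6 (-0.44) and Kdm3a (-0.39). In the other 3 replicates these differences lay between -0.12 and 0.25. Both control arrays of replicate 4 were the highest 2 of the 8 for P4ha1 (8.10 and 8.35), Plod1 (9.31 and 9.47), Kdm3a (10.30 and 10.48) and Jmjd6 (8.12 and 8.32). Without replicate 4 all 7 genes were still called at nickel 400 µM, beside 24.2% of all probe sets called higher, and the changes lay between 0.86 and 2.02.

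At chromium 10 µM 2 of the 7 genes rose and 2 fell, beside 23.0% of all probe sets tested called higher and 19.2% called lower. Egln3 fell by 0.64 ± 0.11 (adjusted p = 0.00042, limma), with 8.19, 8.10, 7.90 and 8.11 at chromium 10 µM, against 8.05 to 9.28 in controls. Each of the 4 arrays lay below the controls of its own replicate, although the ranges overlapped. Plod1 fell by 0.20 ± 0.07 (adjusted p = 0.032, limma). Jmjd6 rose by 0.37 ± 0.10 (adjusted p = 0.0077, limma), with 8.07, 8.12, 8.33 and 8.30 against 7.55 to 8.32 in controls, and P4ha2 rose by 0.22 ± 0.07 (adjusted p = 0.019, limma). The second P4ha2 probe set had -0.09 (adjusted p = 0.33, limma), and with the mean of both the change was 0.06 (adjusted p = 0.39, limma). The changes of Egln1 (0.01, 95% interval from -0.28 to 0.30), P4ha1 (0.05, from -0.24 to 0.34) and Kdm3a (-0.08, from -0.28 to 0.13) did not pass. Egln3 alone was called without the replicate block (1 of 7), beside 17.0% of all probe sets called higher and 13.4% lower. Leaving out replicate 2 or 3 also left 1 of 7 called, and leaving out replicate 1 or 4 left 3 of 7, without Plod1. With a replicate left out, 15.6% to 24.2% of all probe sets were called higher and 13.9% to 18.8% lower.

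At cadmium 1.2 µM 2 of the 7 genes rose and 3 fell, beside 23.9% of all probe sets tested called higher and 13.9% called lower. P4ha2 rose by 0.38 ± 0.07 (adjusted p = 0.00054, limma), with 7.92, 7.71, 7.84 and 7.89 at cadmium 1.2 µM, against 7.28 to 7.69 in controls, and all 4 arrays lay above the controls. The second P4ha2 probe set had -0.07 (adjusted p = 0.48, limma), and with the mean of both the change was 0.15 (adjusted p = 0.054, limma). Plod1 rose by 0.18 ± 0.07 (adjusted p = 0.046, limma). Kdm3a fell by 0.32 ± 0.08 (adjusted p = 0.0045, limma) and Egln3 fell by 0.36 ± 0.11 (adjusted p = 0.018, limma). Egln1 fell by 0.30 ± 0.09 (adjusted p = 0.018, limma), and its values of 8.78, 8.69, 8.66 and 8.83 all lay below the control range of 8.94 to 9.22. P4ha2 alone was called without the replicate block (1 of 7), beside 16.2% of all probe sets called higher and 8.15% lower. Leaving out replicate 1 left 2 of 7 called, leaving out replicate 3 left 3 and leaving out replicate 4 left 2. In these settings 14.1% to 18.3% of all probe sets were called higher and 7.96% to 9.42% lower. With replicates 1 and 2 alone 0 of 7 were called, beside 4.72% of all probe sets higher and 2.45% lower.

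**Figure D3:**
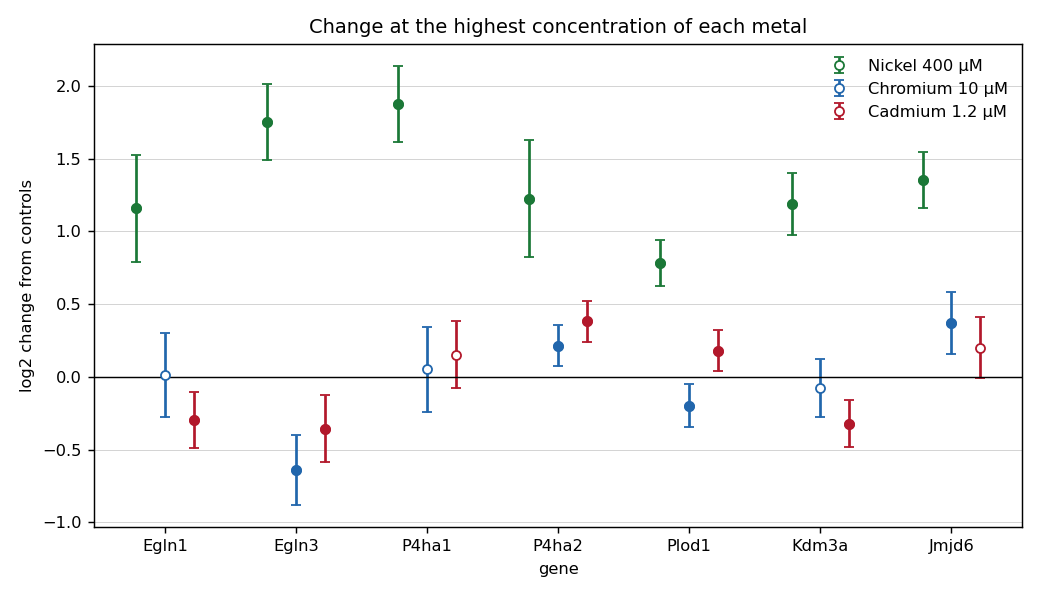
The log2 change from controls (y axis) of each of the 7 tested genes (x axis) is plotted at the highest concentration of each metal, with bars for the 95% interval of the limma fit and filled points for changes called at an adjusted p of at most 0.05. Nickel 400 µM lies between 0.78 and 1.87, while chromium 10 µM and cadmium 1.2 µM lie between -0.64 and 0.38.

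The difference between metals was tested in 1 fit over all conditions. Concentrations of different metals correspond in their effect on viability and not in dose. All 7 genes were higher at nickel 400 µM than at chromium 10 µM, beside 22.9% of all probe sets tested, and all 7 were higher than at cadmium 1.2 µM, beside 20.3%. The largest differences were those of Egln3, at 2.40 ± 0.12 against chromium (5.26-fold, adjusted p = 2.5e-16, limma) and 2.11 ± 0.12 against cadmium (4.32-fold, adjusted p = 3.4e-15, limma). Over the 7 genes the differences ran from 0.98 to 2.40 against chromium and from 0.60 to 2.11 against cadmium, with Plod1 the smallest in both.

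At the lower concentrations of both metals no member passed. At chromium 0.275 and 1 µM 0 of 7 were called, with 0% of all probe sets called in either direction at 0.275 µM and 0.0312% higher and 0.0125% lower at 1 µM. At cadmium 0.2 µM 0 of 7 were called, beside 0.168% higher and 0.312% lower. At cadmium 0.55 µM 0 of 7 were called, beside 8.29% higher and 2.26% lower, and the nearest was Jmjd6, with a change of 0.32 ± 0.10 (adjusted p = 0.055, limma). Its repeated array, 8.29, was the highest of that condition. At an unadjusted p under 0.05 in limma, 1 member passed at chromium 0.275 µM, 1 at chromium 1 µM, 0 at cadmium 0.2 µM and 4 at cadmium 0.55 µM. Of all probe sets tested, 9.32%, 8.19%, 9.80% and 29.2% did so in the same order.

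By the stricter rule of the study's methods, an F test over the 3 concentrations at an adjusted p of at most 0.001 and 1.8-fold in at least 1 of them, 6 of the 7 genes were called for nickel, beside 2.01% of all probe sets. Plod1 was the exception, at 1.72-fold with an adjusted p of 4.7e-06 (limma). For chromium and cadmium 0 of 7 were called by this rule, beside 2.71% and 1.68% of all probe sets (limma).

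The 7 genes followed each other closely over the 10 condition means, with a Pearson r from 0.80 to 0.97 and a median of 0.90 in 21 pairs. The means share arrays, normalization and controls, and mainly the nickel means move them, so that these values are a description. Outside the members, Slc2a1, a glucose transporter, was most like their mean profile (r = 0.997), followed by Pgk1 (0.991), Ddit4 (0.990), Pdk1 (0.987) and Pgm1 (0.985). The genes most like a single member were Pgk1 for P4ha1 (0.998), a transcript named LOC102553043 for Kdm3a (0.995), C2h4orf3 for Egln3 (0.994), Bcl2l11 for Egln1 (0.990), Ndrg1 for P4ha2 (0.986), Mix23 for Jmjd6 (0.985) and Dapk1 for Plod1 (0.976).

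Other dioxygenases, JmjC proteins and their partners, 60 genes in 8 lists, were set beside the 7 genes as a description. Of 42 tested, 18 were called higher and 2 lower at nickel 400 µM, with a median change of 0.16, beside 23.5% and 16.5% of all probe sets. At nickel 140 µM 3 were called higher and 0 lower, beside 2.57% and 0.780%. At chromium 10 µM 9 of the 42 were called higher and 11 lower, beside 23.0% and 19.2%. At cadmium 1.2 µM 7 were called higher and 9 lower, beside 23.9% and 13.9%. Egln2, the third HIF prolyl hydroxylase, had a change of -0.09 ± 0.06 at nickel 400 µM (adjusted p = 0.26, limma), with means of 8.64 at nickel 400 µM and 8.72 in controls. Plod3, the third lysyl hydroxylase, had 0.10 ± 0.06 (adjusted p = 0.2, limma). P4hb, the disulfide isomerase that forms the other subunit of collagen prolyl 4-hydroxylase, rose by 0.81 ± 0.09 (adjusted p = 2.5e-05, limma), and P3h1, a prolyl 3-hydroxylase of collagen, rose by 0.29 at 400 µM and by 0.33 at 140 µM (adjusted p = 0.0082 and 0.035, limma).

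Among JmjC histone demethylases 6 of 14 tested rose at nickel 400 µM and 0 fell, with a median of 0.18, beside 23.5% and 16.5% of all probe sets. Kdm4b (0.61), Kdm4c (0.58), Kdm5b (0.45) and Kdm2a (0.42) changed most, and Kdm3b, the paralog of Kdm3a, rose by 0.22 ± 0.07 (adjusted p = 0.018, limma). Kdm4b also rose at nickel 140 µM, by 0.57, and fell at cadmium 1.2 µM, by 0.36. Of 7 other JmjC proteins 3 rose at nickel 400 µM and 0 fell, namely Riox1 (0.45), Hspbap1 (0.42) and Jarid2 (0.27). Of 10 dioxygenases of nucleic acids 6 rose, with Tet3 (0.65), Alkbh5 (0.56), Tet2 (0.54) and Alkbh1 (0.46) first, and Alkbh6 fell by 0.25. Alkbh5, an RNA demethylase, also rose at nickel 140 µM, by 0.36. Among 7 further dioxygenases Asph rose by 0.58 and Phyh, which starts phytanic acid breakdown in peroxisomes, fell by 0.86. At chromium 10 µM, of the genes named here, Riox1 (0.71), Alkbh1 (0.67), Hspbap1 (0.50) and Kdm2a (0.21) were called higher. Phyh (-0.64), Kdm4b (-0.57), Asph (-0.50), Jarid2 (-0.30) and Alkbh6 (-0.18) were called lower. Of all probe sets tested, 23.0% were called higher and 19.2% lower at chromium 10 µM.

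**Figure D4:**
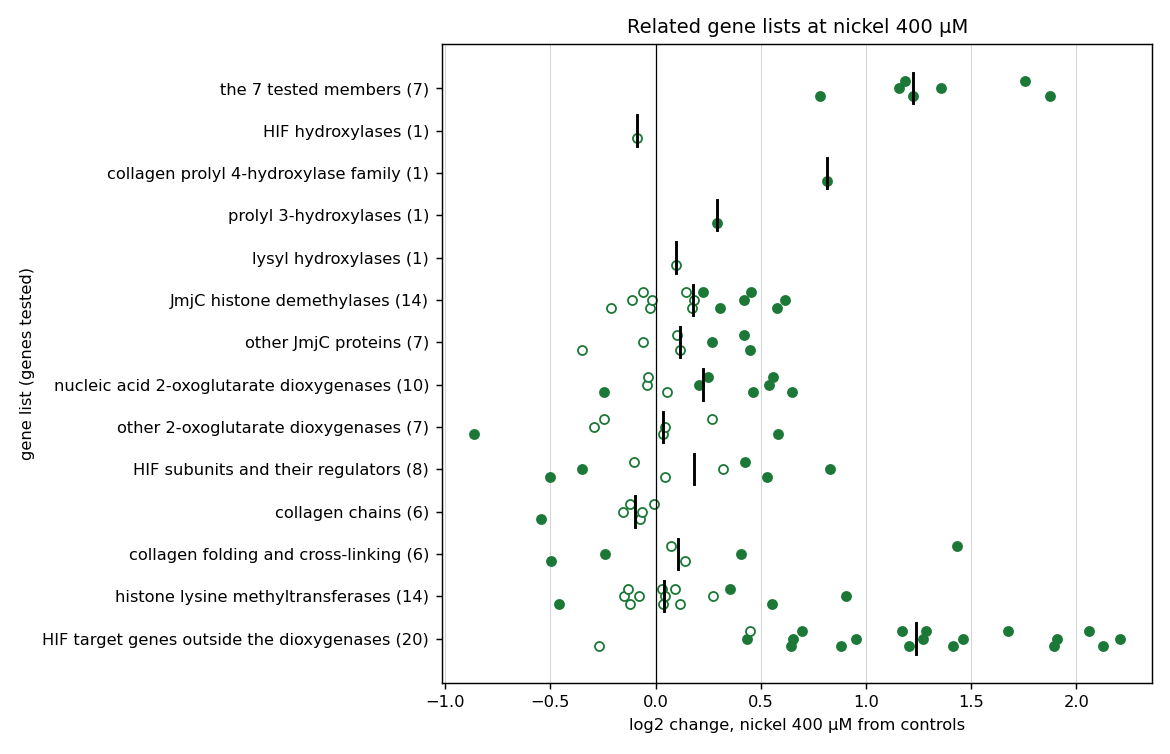
Each point is the log2 change of 1 gene at nickel 400 µM from controls (x axis), by gene list (y axis, genes tested in parentheses), with filled points for changes called at an adjusted p of at most 0.05 and a black line at the median of the list. The 7 members have a median of 1.23 and the HIF target genes 1.24, while the dioxygenase and JmjC lists with at least 7 genes have medians between 0.04 and 0.23.

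Targets and regulators of HIF were set beside the members as a description, in lists also chosen with earlier results of these data known. Of 20 tested HIF target genes outside the dioxygenases, 18 rose at nickel 400 µM and 0 fell, with a median of 1.24, led by Ero1a (2.21), Adm (2.13), Ndrg1 (2.06) and Slc2a1 (1.91). At nickel 140 µM 14 of the 20 rose and 0 fell, with a median of 0.77, and Bnip3, a mitophagy receptor, rose by 1.33. Of all probe sets tested, 23.5% were called higher and 16.5% lower at nickel 400 µM, and 2.57% and 0.780% at nickel 140 µM. At chromium 10 µM 2 of these 20 were called higher and 5 lower, beside 23.0% and 19.2% of all probe sets tested. At cadmium 1.2 µM 4 of the 20 were called higher and 4 lower, beside 23.9% and 13.9%. Of 8 tested HIF subunits and regulators, Siah2 (0.83), Cited2 (0.53) and Epas1 (0.42) rose and Arnt (-0.35) and Hif1a fell. The control mean of Siah2 lay below the filter floor of 5.91. Siah2 therefore passed the filter only through exposures where its mean was higher, so that its rise is a description. The mRNA of Hif1a, the oxygen-regulated subunit, fell by 0.50 ± 0.05 at nickel 400 µM (adjusted p = 2e-05, limma) and by 0.25 at nickel 140 µM (adjusted p = 0.024, limma).

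Counts for collagen chains and methyltransferases are to be read against the 23.5% of all probe sets called higher and 16.5% lower at nickel 400 µM. Of 21 collagen chains on the array 6 were tested, and the others lay below the filter on low values. Of the 6 tested, 0 were called higher and 1 lower, and Col18a1, the tested chain called lower, changed by -0.55. Changes of the chains without a test are not given here. Among 6 genes of collagen folding and cross-linking Loxl2, a lysyl oxidase, rose by 1.43 and Fkbp14 by 0.40, while Pcolce (-0.50) and Loxl3 (-0.24) fell. Loxl2 also rose at nickel 140 µM, by 0.68. Of 14 histone lysine methyltransferases, which add methyl marks, 3 rose at nickel 400 µM, Kmt2a (0.91), Ezh2 (0.55) and Setd2 (0.35), and Ehmt2, which writes the mark that Kdm3a removes, fell by 0.46. At nickel 140 µM 1 of these 14 was called higher and 0 lower, beside 2.57% and 0.780% of all probe sets.

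The arrays were checked for cell identity and quality. Alb averaged 14.2 at nickel 400 µM and 14.5 in controls, and of 15 measured markers of fibroblasts, endothelium and leukocytes only Acta2 passed the filter, with means of 4.30 to 6.75 over the 15 at nickel 400 µM and 4.18 to 6.45 in controls. Of 6 tested hepatocyte markers 0 were called higher and 4 lower at nickel 400 µM, namely Afp (-1.75), Ttr (-1.62), Serpina1 (-0.99) and Hnf4a (-0.70). At chromium 10 µM 1 was called higher and 3 lower, and at cadmium 1.2 µM 1 higher and 4 lower. At nickel 400, chromium 10 and cadmium 1.2 µM 23.5%, 23.0% and 23.9% of all probe sets were called higher. Called lower were 16.5%, 19.2% and 13.9% in the same order. In bulk RNA fewer cells and less RNA per cell cannot be told apart. The part of the hepatocyte marker changes or of cell death in the changes of the members was not tested. The median correlation of an array with the others of its condition lay between 0.953 and 0.976 for the repeated arrays and between 0.952 and 0.988 for the others.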

How the data were processed

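RNA of the hepatoma line was read on 36 arrays of exposed and 8 of control cells. Deposited values are log2 intensities that the authors summarised with RMA, run in Partek software, and no further scaling was applied. Conditions followed the moved titles described above. Detection calls were not used here, and as many probe sets as the methods tested, those with the highest value, over conditions, of the lowest array of a condition were tested (floor 5.91), without the 57 array controls. Of the probe sets, 20826 name 1 gene, 436 several and 9780 none. Linear models, 1 per metal, were fitted in limma 3.58.1 (R 4.3.3). They held the replicate number as a block, each replicate's 2 control arrays entered as their mean, and p-values were adjusted over all probe sets tested by Benjamini-Hochberg. Residual degrees of freedom were 9, and 27 in the fit over all conditions. A gene with several probe sets was counted by the tested one with the highest mean.

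Replicate numbers pair the arrays: deviations of exposed and control arrays with the same number from their condition means correlated above 0.1 in 36 of 36 pairs (0.211 to 0.839). p-values measure the spread that is left after condition and replicate number are fitted. This spread is pooled over the conditions of a fit and drawn by limma towards that of all probe sets. The number of arrays limits the precision. The fit was tested on simulated data. Members and gene lists were chosen with earlier results of these data known. All members were named, with up to 4 called genes per list by size of change at nickel 400 µM. Some of those called at nickel 140 µM, some further genes of the lists and the genes most like the members were also named. Promoters are from RefSeq (GRCr8). Alternatives are given in the closing section.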

Additional observations from a re-analysis of the deposited data

Results flagged for a closer look

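Of 100 groups of 4 or 8 arrays, 10 probe sets in 10 conditions, 3 had a highest or lowest array that stood apart by Dixon's criterion at the 95% level, which chance alone gives in about 1 of 20 groups. All 3 were in probe sets below the filter on low values. The second Egln1 probe set had 5.55 in replicate 2 at nickel 40 µM, against 5.8 to 5.82 in the others of that condition (gap over range 0.934). Plod2 had 4.77 in replicate 1 at cadmium 0.2 µM, against 5.14 to 5.18 in the others (0.901), and 5.35 in replicate 3 at cadmium 0.55 µM, against 5.00 to 5.05 in the others (0.868).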

How the results depend on the processing

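All 7 genes were called higher at nickel 400 µM in every alternative except the titles as deposited, and their changes then lay between 0.73 and 2.09. These alternatives called 12.6% to 28.5% of all probe sets higher at nickel 400 µM. P4ha2 moved most, between 0.78 with the mean of its probe sets and 1.72 with replicates 1 and 2 alone. With the titles as deposited, 0 genes were called at nickel 400 µM, 0 at nickel 140 µM, 0 at chromium 10 µM, 0 at cadmium 1.2 µM and 0 for nickel 400 µM against 140 µM, 1 for nickel against chromium and 1 for nickel against cadmium, and the step from 140 to 400 µM turned to -0.017 for Egln3, -0.10 for P4ha1, -0.10 for Kdm3a and -0.023 for Jmjd6. That setting gives 22 arrays another condition. It called 2.22% of all probe sets higher and 2.86% lower for nickel against chromium, and 0.780% and 1.29% for nickel against cadmium. Without the replicate block 7 were called at nickel 400 µM, 5 at nickel 140 µM, 1 at chromium 10 µM and 1 at cadmium 1.2 µM. Leaving out each replicate gave 7 at nickel 400 µM and 5 at nickel 140 µM, 1 to 3 at chromium 10 µM, 2 to 4 at cadmium 1.2 µM, and 1 to 7 for the step from 140 to 400 µM. Of all probe sets, 14.4% to 24.2% were then called higher at nickel 400 µM and 0.393% to 1.25% at nickel 140 µM. For the step it was 2.22% to 13.7%. At chromium 10 µM 15.6% to 24.2% were called higher and 13.9% to 18.8% lower. At cadmium 1.2 µM 14.1% to 27.9% were called higher and 7.96% to 17.4% lower. With replicates 1 and 2 alone 2 were called at chromium 10 µM and 0 at cadmium 1.2 µM, and 2 at chromium 10 µM when the Control 2 array of each replicate was used by itself. At cadmium 0.55 µM 1 was called when the Control 1 array was used by itself, 2 when all 8 controls entered separately and 1 with the mean of the probe sets. In the same order, 8.82%, 17.7% and 10.3% of all entries tested were called higher and 2.76%, 6.03% and 2.87% lower. Changes of single genes were tallied at nickel 140 and 400 µM, chromium 10 µM and cadmium 1.2 µM, for the step and between metals. Cadmium 0.55 µM was not part of this tally. Under these alternatives 680 stayed on the same side of the threshold, 90 lost the call, 3 gained it and 4 reversed. The titles as deposited gave 36 of the 90 losses and all 4 reversals. The cause of these shifts was not tested. Values near the floor of 5.91 carry little signal over background, which limits Plod2.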
